A study of Mus musculus with 20 samples.

Results

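The 10 genes described here encode proteins of the contractile and calcium-handling apparatus of slow muscle fibres and were followed across the 20 gastrocnemius samples of the series: Tnnt1, Tnni1, Tnnc1, Tpm3, Myl2, Myl3, Atp2a2, Casq2, Myoz2 and Csrp3. They were taken by symbol, with every probe set that the platform annotation gives to a single gene, which came to 10 genes and 21 probe sets out of 18193 genes and 45037 probe sets. Mice received injections into the peritoneum on days 1 and 3, either of JA16, an antibody against the muscle growth inhibitor myostatin (0.12 and 0.09 mg per g body weight), or of saline, and the calf muscle was taken on day 5. Each group has 10 samples, numbered 1 to 10 in both. The labels give no strain, sex or age of the mice. The labels do not say that each sample is a separate mouse, so p-values measure only how these samples vary, which may be technical in part.

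Slow (type I) fibres contract slowly, rely on oxidative metabolism and resist fatigue. They build their sarcomeres from their own set of troponin, tropomyosin and myosin light chain isoforms, most of which the heart also uses, while fast fibres use paralogs such as Tnnt3, Tnni2 and Tnnc2. In the mouse the gastrocnemius is mainly a fast muscle, with slow fibres gathered in a small deep region, next to the slow soleus.

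The stretches just before the gene starts are shown because the levels of several members moved together over samples. RefSeq (GRCm38.p6) start sites were matched for 9 of the 10 members, 13 starts in all. Tnnt1, Tnnc1, Myl3 and Myoz2 are members whose level was far below that of all other samples in JA16 replicate 3, and Casq2 is a member whose level there was beside that of the next sample. Each sequence covers the 250 bases before the start, 5′ to 3′ on the gene's strand. Capitals mark matches to the E-box (CANNTG), to which the MyoD family binds, to the MCAT element (CATTCC), to which TEAD factors bind, and to the MEF2 consensus, named after the factors that bind it, searched on both strands.
Tnnt1, chr7:4515976-4516225, minus strand: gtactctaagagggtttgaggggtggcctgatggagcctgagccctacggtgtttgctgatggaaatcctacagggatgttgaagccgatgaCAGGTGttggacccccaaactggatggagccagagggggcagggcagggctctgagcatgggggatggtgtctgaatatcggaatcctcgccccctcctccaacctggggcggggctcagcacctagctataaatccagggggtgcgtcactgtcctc
Tnnc1, chr14:31208062-31208311, plus strand: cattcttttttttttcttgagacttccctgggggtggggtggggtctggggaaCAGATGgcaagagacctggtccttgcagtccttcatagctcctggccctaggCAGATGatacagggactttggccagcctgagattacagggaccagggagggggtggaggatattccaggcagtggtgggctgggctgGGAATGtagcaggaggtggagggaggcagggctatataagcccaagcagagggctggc
Myl3, chr9:110763428-110763677, plus strand: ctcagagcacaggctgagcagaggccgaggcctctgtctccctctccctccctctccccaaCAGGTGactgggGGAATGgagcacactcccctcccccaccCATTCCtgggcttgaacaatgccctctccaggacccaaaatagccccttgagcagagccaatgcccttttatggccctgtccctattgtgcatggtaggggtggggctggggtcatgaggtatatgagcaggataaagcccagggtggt
Myoz2, chr3:123034988-123035237, minus strand: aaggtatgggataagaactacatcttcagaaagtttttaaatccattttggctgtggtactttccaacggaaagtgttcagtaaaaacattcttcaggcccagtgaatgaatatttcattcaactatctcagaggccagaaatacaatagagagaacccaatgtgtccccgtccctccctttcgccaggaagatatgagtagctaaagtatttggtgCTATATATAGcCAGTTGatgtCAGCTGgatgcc
Casq2, chr3:102086165-102086414, plus strand: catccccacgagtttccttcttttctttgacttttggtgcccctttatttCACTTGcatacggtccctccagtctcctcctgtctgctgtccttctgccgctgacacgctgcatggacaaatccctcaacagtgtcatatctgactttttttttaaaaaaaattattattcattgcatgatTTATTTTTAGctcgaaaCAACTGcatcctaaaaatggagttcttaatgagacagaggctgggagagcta

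An E-box lay in all 13 member windows, against 66.2% of the 32851 windows of this length in the table. The 13 windows come from 9 genes, and those of the 2 Tnni1 starts overlap and share E-boxes, so they are not independent. MEF2 matches lay in 2 of 13 (Casq2 and Myoz2), against 2.92% of all windows, and MCAT matches in 2 of 13 (Tnnc1 and Myl3), against 12.6%. The sequence TATAAA lay in 2 of 13 (Tnnt1 and a start of Myl2), against 12.4%, and the CArG box, to which SRF binds, in 1 of 13 (Myl3), against 1.47%. In Myoz2 the MEF2 match began at position -33 from the start and its E-boxes at -22 and -12. A match to TATAAA can lie inside a MEF2 match, so these motifs are not independent. The printed promoter of Casq2 also holds E-boxes and a MEF2 match. The matches are a description of letters only.

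Values are MAS5 intensities, scaled on each array to the same trimmed mean, and differences are JA16 minus saline in log2 intensity. Array medians ran from 38.9 to 77.1. Of the 21 member probe sets, 20 passed the filter on low values (a mean log2 intensity of at least 5.65 over all samples) and were tested among 22519 probe sets. The skeletal muscle markers were bright in every sample, with all 8 above the filter and summed intensities of 147307 to 185468 in saline and 149726 to 218415 in JA16 samples, Mylpf and Actn3 being the brightest. Of 7 heart markers only Myl4 and Tnnt2 passed the filter. Samples with the same replicate number are called pairs here, though the labels name no pairing. Arrays of replicates 1 to 6 and 7 to 10 form 2 sets by the log2 ratio of beta-actin signal at the 3′ over the 5′ control probe set. That ratio ran from 1.33 to 1.84 in the first set and from 0.48 to 0.64 in the second. Pairs and sets are given beside the results they touch. JA16 replicate 3 stood apart from the other 19 samples in the slow fibre genes, and the members' differences are given with and without it.

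No member differed between the groups beyond the spread between samples. In limma 0 of 20 member probe sets passed an adjusted p of 0.05, and 0 of 20 had an unadjusted p under 0.05, while 2 of 22519 probe sets passed (0.00888%) and 501 had an unadjusted p under 0.05. The 2 that passed, named here after their values were seen, were those of Mss51 at -1.63 (SE 0.23, adjusted p = 0.0055) and Junos at -1.43 (SE 0.21, adjusted p = 0.0055). With the replicate number as a block 45 probe sets passed (0.200%), again with 0 members. There 3 of 20 member probe sets, all of Atp2a2, had an unadjusted p under 0.05, beside 3530 of 22519 over all, which is a like share. The direction was shared: all 20 tested member probe sets and all 10 genes (at the probe set with the highest mean log2 intensity) were lower in JA16, and the median over the genes was -0.44 against -0.036 over all probe sets tested, of which 57.7% were lower. In whole tissue, fewer slow fibres and less slow transcript per fibre cannot be told apart.

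That all members shared this direction, and most of the size of the median, rested on 1 sample. Without JA16 replicate 3 the median over the 10 members was -0.13, against -0.028 over all probe sets, and the members ran from -0.29 to 0.31. Then 6 of 10 genes and 14 of 20 member probe sets were lower, against 55.5% of all probe sets tested. In that fit 0 of 20 member probe sets passed and 0 had an unadjusted p under 0.05, while 2 of 22519 passed (0.00888%). Before adjustment 495 of the 22519 were under 0.05. With the block and without both samples numbered 3 the median was -0.087, and 14 probe sets passed (0.0622%), with 0 members. An unadjusted p under 0.05 was then found for 3395 of 22519 probe sets and 0 of 20 of the members'. Within the pairs, all 10 members were lower in JA16 in pairs 3 and 5, 9 in pairs 4 and 6, and 0 in pair 2. The median difference over the members was -4.12 in pair 3, -0.81 in pair 4 and 1.18 in pair 2, and between -0.40 and 0.14 in the other 7 pairs.

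**Figure D1:**
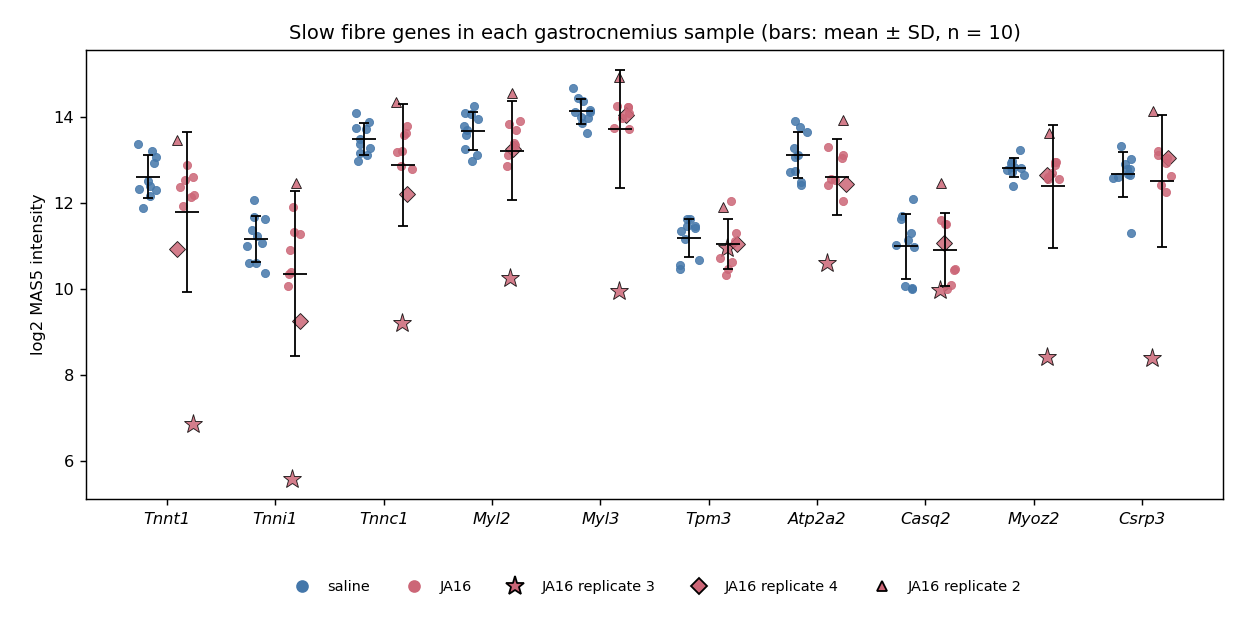
Log2 MAS5 intensity (y axis) of the probe set with the highest mean for each of the 10 slow fibre genes (x axis) in 10 saline (blue) and 10 JA16 samples (red), with bars for mean ± SD. The star, JA16 replicate 3, is the lowest sample for 9 of the 10 genes, only just for Casq2 and not for Tpm3, and the triangle, JA16 replicate 2, is the highest sample for 9 of the 10 genes.

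Among the thin filament regulators, Tnnt1, which encodes the slow troponin T that anchors the troponin complex to tropomyosin, had a single sample far below the rest. Its intensity ran from 3735 over a median of 5584 to 10532 in saline samples. In JA16 samples it ran from 115 over a median of 4926 to 11269. The 115 of JA16 replicate 3 was 16.9 times below the next lowest sample, JA16 replicate 4 at 1941, and the other 8 JA16 samples lay within or above the range of saline. The difference was -0.83 (SE 0.55, limma unadjusted p = 0.145) over all samples and -0.28 (SE 0.25) without JA16 replicate 3, where its 95% confidence interval was -0.80 to 0.25.

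Tnni1, the slow inhibitory subunit of troponin, had the same lowest and highest samples. Saline samples ran from 1309 over 2251 to 4252, and JA16 samples from 47.9 over 1629 to 5584. JA16 replicate 3 was 12.7 times below the next lowest sample, again JA16 replicate 4, at 608. Tnni1 was at -0.81 (SE 0.57, limma unadjusted p = 0.17), and at -0.28 (SE 0.33) without JA16 replicate 3. Tnnc1, the calcium-binding subunit shared by slow fibres and heart, ran from 7979 over 11009 to 17463 in saline and from 586 over 9297 to 20865 in JA16 samples. The lowest were once more JA16 replicates 3 and 4, the latter at 4685, and the highest JA16 replicate 2. Its difference was -0.61 (SE 0.42, limma unadjusted p = 0.159), and -0.20 (SE 0.21) without JA16 replicate 3.

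Tpm3, the slow alpha-tropomyosin gene, which also makes widely expressed cytoplasmic forms, had 5 probe sets that did not behave alike. Probe sets 1449997_at and 1449996_a_at followed the troponins: JA16 replicate 3 was at 145 and 78.2, 5.73 and 8.09 times below the next lowest sample. Probe sets 1427260_a_at and 1436958_x_at did not: there JA16 replicate 3 was at 1976 and 2334, inside the saline ranges of 1397 to 3170 and 926 to 2985. The dim 1427567_a_at was inside its range as well, at 81.2. The low ends of the saline ranges of 1427260_a_at and 1436958_x_at lay in the other array set, where mean log2 intensity differed by -0.80 and -1.14. Within its own array set JA16 replicate 3 was below all saline samples at both, which began at 2289 and 2540. At 1427260_a_at it was the lowest of that set, just below JA16 replicate 4 at 2114. At 1436958_x_at JA16 replicate 4 was lower, at 2185. Over the 19 other samples the first pair correlated with Tnnt1 at r = 0.77 and 0.82, and the second at 0.14 and 0.12, given as a description. Differences between groups were -0.79 (SE 0.46) and -0.85 (SE 0.50) for the first pair and -0.14 (SE 0.22) and -0.034 (SE 0.28) for the second, whose sign turned to 0.035 for 1436958_x_at when array medians were centred. Without JA16 replicate 3 they were -0.42 (SE 0.34) for both of the first pair, and -0.12 (SE 0.23) and -0.055 (SE 0.29) for the second. Which transcript forms each probe set detects was not tested. Values of Tpm3 as a gene are those of 1427260_a_at, which had the highest mean log2 intensity and did not follow the troponins.

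**Figure D2:**
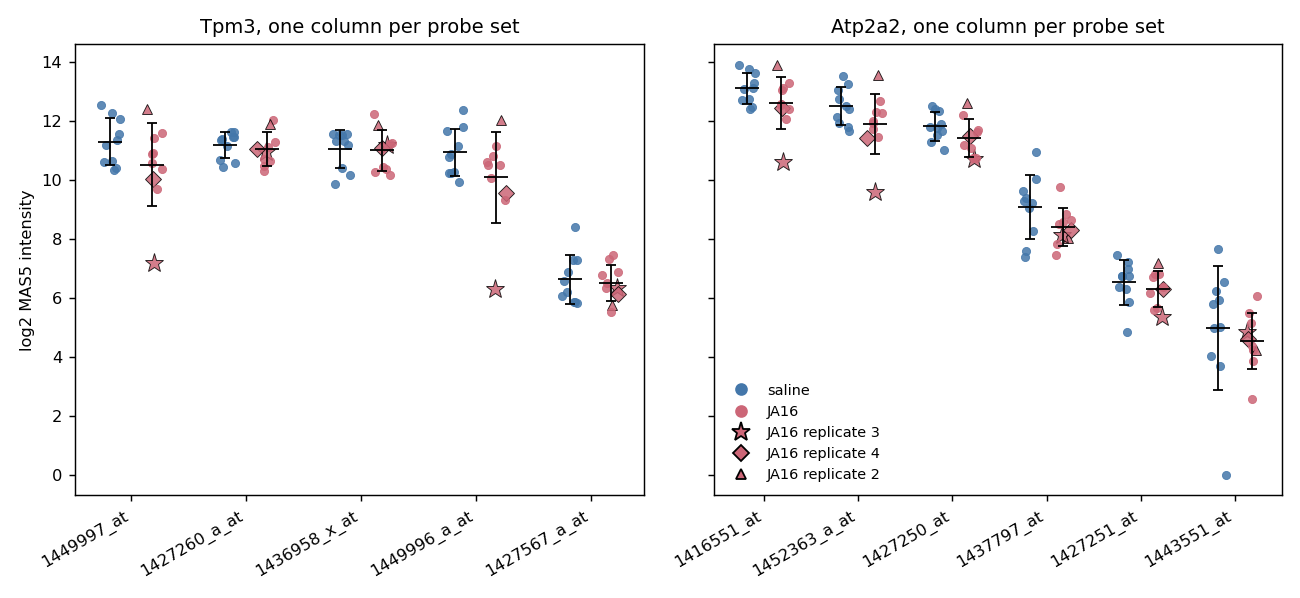
Log2 MAS5 intensity (y axis) of each probe set (x axis) of Tpm3 (left) and Atp2a2 (right) in 10 saline (blue) and 10 JA16 samples (red), with bars for mean ± SD. The star, JA16 replicate 3, lies below all other samples for 1449997_at and 1449996_a_at of Tpm3, and for 1416551_at, 1452363_a_at and, only just, 1427250_at of Atp2a2.

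The myosin light chains behaved as the troponins did in JA16 replicate 3. In JA16 replicate 4, Myl2 and Myl3 ranked 5 and 8 from the bottom of the 19 other samples, where the troponins were lowest. These ranks include replicates 7 to 10, where mean log2 intensity differed by -0.71 for Myl2 and -0.39 for Myl3. Within replicates 1 to 6, JA16 replicate 4 was the next lowest for Myl2 after JA16 replicate 3, with JA16 replicate 5 following at 13097.5. For Myl3 it read 16893 there, and saline replicate 2 was also lower, at 16296. Myl2, the slow and ventricular regulatory light chain, ran from 8052 over 13560 to 19420 in saline and from 1210 over 10484 to 23760 in JA16 samples. JA16 replicate 3 was 6.13 times below the next lowest sample, and JA16 replicate 4, at 9680, lay within the saline range. The low end of that range lay in replicates 7 to 10, and saline replicates 1 to 6 began at 13110. The Myl2 difference was -0.46 (SE 0.35, limma unadjusted p = 0.203), and -0.13 (SE 0.20) without JA16 replicate 3. Myl3, the slow and ventricular essential light chain, was measured by 3 probe sets that followed each other. At 1427768_s_at, saline samples ran from 12621 over 17666 to 25856 and JA16 samples from 990 over 17118 to 31015. JA16 replicate 3 was 12.8, 19.4 and 9.26 times below the next lowest sample at the 3 probe sets, the largest of these ratios being that of 1428266_at, where it read 390. The Myl3 differences lay between -0.44 and -0.39, and between 0.0071 and 0.039 without JA16 replicate 3.

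The calcium store genes divided. Atp2a2 encodes SERCA2, the pump that returns calcium to the sarcoplasmic reticulum in slow fibres and heart, and had 6 probe sets, 5 of them tested. At 1416551_at, saline samples ran from 5447 over 8705 to 15162 and JA16 samples from 1552 over 5966 to 15389. JA16 replicate 3 was 2.73 times below the next lowest sample there and 3.56 times at 1452363_a_at (773). At 1427250_at (1677) it was level with the next lowest, JA16 replicate 7 of the other array set, a ratio of 1.01. Within replicates 1 to 6 the next lowest at that probe set was JA16 replicate 4, at 2862. At 1437797_at, 1427251_at and the untested 1443551_at, JA16 replicate 3 was inside the range of the others. The difference at 1416551_at was -0.51 (SE 0.30, limma unadjusted p = 0.0969), lower in 8 of 10 pairs, with an adjusted p of 0.317 with the replicate block. Without JA16 replicate 3 it was -0.29 (SE 0.23), with a 95% confidence interval of -0.77 to 0.19, and it was the lowest of the 10 members in that fit. All 5 tested Atp2a2 probe sets were lower in JA16 with and without that sample, between -0.67 and -0.24 and between -0.64 and -0.13.

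Casq2, the cardiac and slow form of the calcium buffer calsequestrin, was at about the level of the next lowest sample in JA16 replicate 3. Saline samples ran from 1015 over 2158 to 4367 and JA16 samples from 1010 over 1781 to 5624, and the 1010 of JA16 replicate 3 was 1.01 times below the next value. Its difference was -0.078 (SE 0.33), or 0.025 (SE 0.33) without that sample. Casq2 differed between the array sets instead: its mean log2 intensity was 11.54 ± 0.44 (SD, n = 11) in replicates 1 to 6 without JA16 replicate 3, and 10.25 ± 0.36 (SD, n = 8) in replicates 7 to 10, a difference of -1.28. JA16 replicate 3 belongs to the brighter set, where it was the lowest sample and the next, saline replicate 2, read 2005. The same difference was -0.80 for Tpm3, -0.72 for Atp2a2 and -0.71 for Myl2, against 0.016 for Tnnt1 and -0.0087 for Tnni1. The part of array processing in these shifts was not tested.

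Myoz2 and Csrp3, of the Z-disc, were both far below all other samples in JA16 replicate 3, and without it Csrp3 was higher in JA16 and Myoz2 near 0. Myoz2, or calsarcin-1, tethers calcineurin to the Z-disc of slow and cardiac muscle. It ran from 5319 over 7218 to 9618 in saline and from 339 over 6505 to 12562 in JA16 samples, where JA16 replicate 3 was 15.7 times below the next lowest sample. Its difference was -0.43 (SE 0.41, limma unadjusted p = 0.312) and 0.013 (SE 0.13) without that sample, with a 95% confidence interval of -0.25 to 0.28. Csrp3 encodes muscle LIM protein, a Z-disc protein linked to the response to stretch. It ran from 2530 over 6750 to 10274 in saline and from 334 over 8032 to 17815 in JA16 samples, with JA16 replicate 3 7.58 times below the next lowest, saline replicate 8. Csrp3 was the only member whose difference was positive by more than its SE without JA16 replicate 3, at 0.31 (SE 0.22, 95% confidence interval -0.16 to 0.78), against -0.15 (SE 0.46) with it. With the block and without both samples numbered 3 it was 0.34 (SE 0.16, limma adjusted p = 0.336), higher in 6 of 9 pairs and lower in 3. The largest of these pair differences were 1.54 in pair 2 and 0.95 in pair 8, whose saline sample was the lowest of its group.

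**Figure D3:**
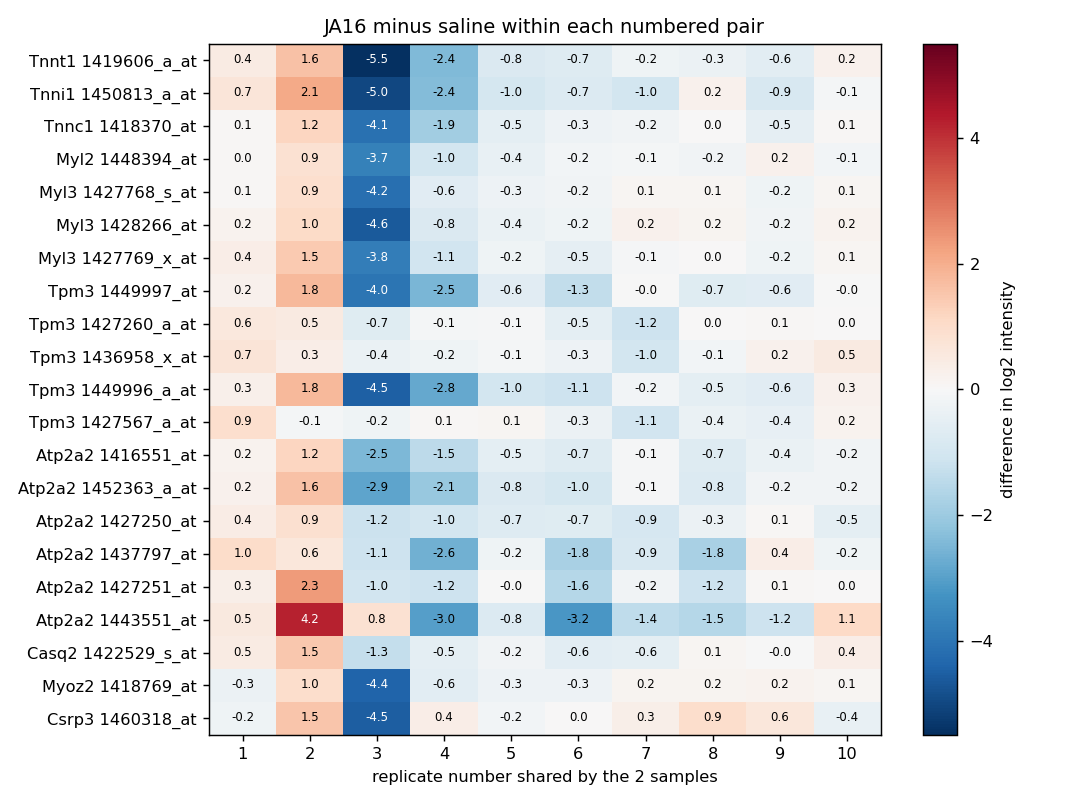
JA16 minus saline difference in log2 intensity for each of the 21 member probe sets (rows) within each numbered pair of samples (columns), with blue for lower in JA16. Pair 3 holds the lowest values, down to -5.47 for Tnnt1, pair 4 is low for the troponins and for probe sets of Tpm3 and Atp2a2, and pair 2 is above 0 for all 10 members.

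For 9 of 10 members JA16 replicate 3 was the lowest of 20 samples, against 5.62% of all tested probe sets. Among 6530 bright probe sets (a mean log2 intensity of at least 10 in the other samples) it lay at least 2 log2 units below all 19 others in 24, of which 11 belonged to 8 members, and above all others by that much in 0. The same count was 0 or 1 for each of the other 19 samples. Its array was like the others of its set by the log2 beta-actin ratio (1.71, within 1.33 to 1.84) and by its median intensity (53.2). The fast paralogs were not low there: all 10 were above their saline mean in JA16 replicate 3, with a summed intensity of 255425 against 181442 to 233288 in saline samples. Skeletal muscle markers (190667) and heart markers (2183, saline 1274 to 8889) were inside or above their saline ranges. Tendon and fibroblast markers (24484, saline 26767 to 45304), Schwann cell and nerve markers (7483, saline 9338 to 18855) and endothelial markers (2260, saline 3104 to 4881) were below theirs, where the other JA16 samples began at 15140, 6540 and 2616. Its endothelial sum was thus the lowest of 20 samples. Adipocyte (7756) and macrophage (11284) sums were within the saline ranges. Embryonic muscle markers (1379, saline from 1632) and blood markers (106, saline from 137) were below theirs, and no value of any marker list was at 0. The part of those tissues in the loss of slow fibre signal was not tested. The label of its array carries a suffix that no other array's has, and the sources used here do not say what it stands for.

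The fast forms varied little beside the slow ones. Over the 10 fast or alternative paralogs the SD of log2 intensity had a median of 0.15 (saline) and 0.16 (JA16), against 0.47 and 1.39 for the members, or 0.59 without JA16 replicate 3. The median over all tested probe sets was 0.45 and 0.51. In saline the SD of Casq2 (0.75) was above 84.4% of all probe sets and that of Myoz2 (0.22) above 10.1%. In JA16 samples those of Tnni1 (1.91) and Tnnt1 (1.85) were above 99.8% of all. Without JA16 replicate 3 that of Tnni1 (0.98) was above 89.9% and that of Myl3 (0.36) above 25.0%.

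All 10 paralogs were slightly higher in JA16, between 0.036 and 0.12, and 0 passed in limma, with or without the block. Leaving out JA16 replicate 3 they ran from 0.013 to 0.11, with Tnnt3 at 0.022, Tnnc2 at 0.029, Mylpf at 0.018, Myl1 at 0.013, Atp2a1 at 0.017 and Tnni2 at 0.041. Casq1, the fast calsequestrin, was at 0.12 (SE 0.069), from 14560 ± 1354 to 15846 ± 1563 (SD, n = 10). Myoz1, the fast calsarcin, was at 0.11 (SE 0.070). Tnnt3, Tnni2 and Tnnc2, the fast troponins, were at 0.050, 0.064 and 0.054, and Mylpf and Myl1, the fast light chains, at 0.036 and 0.055. Tpm1, Tpm2 and the fast calcium pump gene Atp2a1 were at 0.067, 0.065 and 0.046. With quantile normalization 7 of these turned below 0, Tnnt3, Tnnc2, Mylpf, Myl1, Tpm1, Tpm2 and Atp2a1, between -0.043 and -0.0010, so their direction depends on the scaling. The members' median was -0.48 with quantile normalization and -0.38 with centred array medians, which moved the median of all probe sets to -0.0044 and 0.034.

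**Figure D4:**
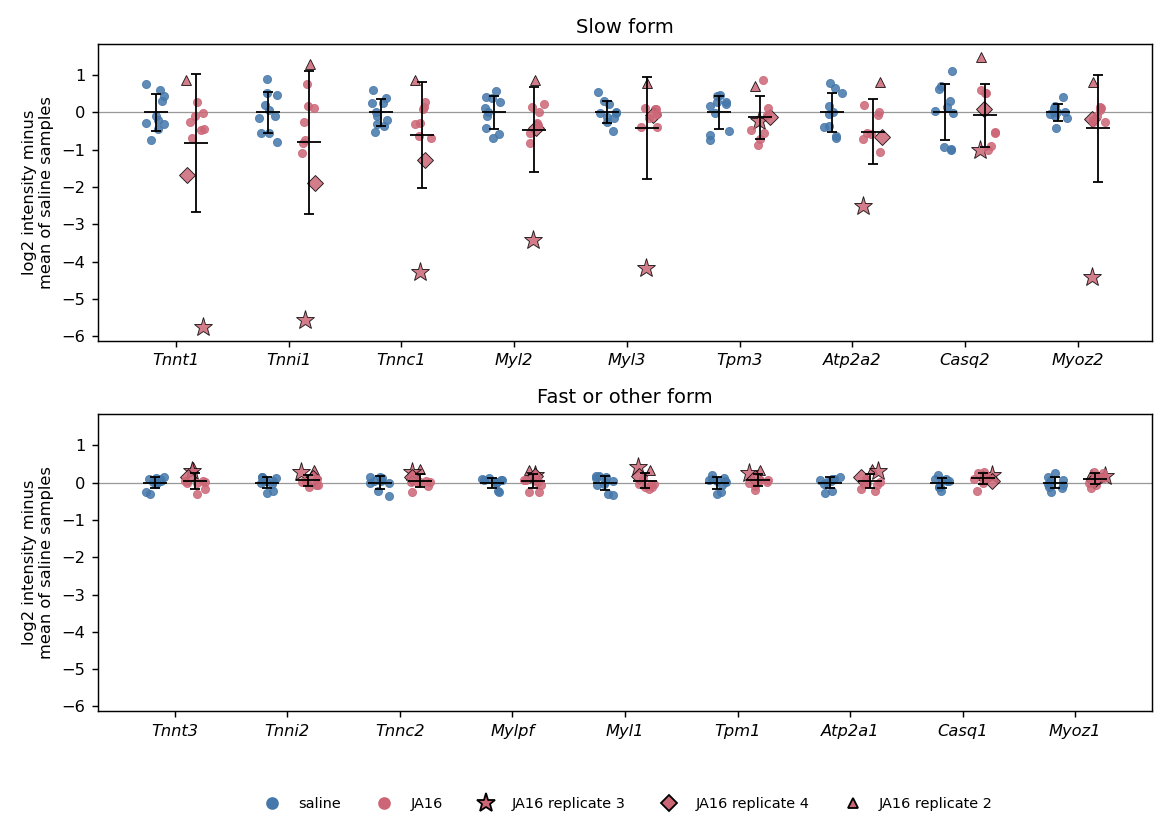
Log2 intensity relative to the mean of the saline samples (y axis) for 9 slow fibre genes (top) and the fast or alternative form of each (bottom), in 10 saline (blue) and 10 JA16 samples (red), with bars for mean ± SD. Diamonds are JA16 replicate 4 and triangles JA16 replicate 2. Most slow forms spread over several log2 units, with JA16 replicate 3 (star) lowest for all but Tpm3, while the fast forms keep within a narrow band in which the star is above 0.

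The other slow and oxidative fibre genes had a median difference nearer to 0. Of 26, 25 passed the filter (Myh6 did not), 0 passed in limma with or without the block, 15 were lower and the median was -0.0803, or 0.010 with 12 lower without JA16 replicate 3. That sample was the lowest of 20 for 14 of the 26. Myh7, the slow myosin heavy chain, averaged 8111 ± 4437 with saline and 6059 ± 5370 with JA16 (SD, n = 10), with 389 in JA16 replicate 3, a difference of -0.77 (SE 0.50), or -0.39 (SE 0.38) without it. Myh2, the fast oxidative IIa heavy chain, was low there too, at 1933 against at least 12852 in all others, and was at -0.29 (SE 0.29) and 0.013 (SE 0.094). Myom3, an M-band protein, read 18.7 against at least 407 in the others (-0.50, SE 0.51, and 0.014, SE 0.22). The dim Myh7b was at -0.89 (SE 0.54) and -0.51 (SE 0.44). Ankrd2, a stretch-responsive gene, was at 0.095 (SE 0.48) with JA16 replicate 3, where it read 208, and at 0.57 (SE 0.23, limma unadjusted p = 0.0197, adjusted p = 0.999) without it, the largest difference of the list in that fit. Pln, which encodes the SERCA2 inhibitor phospholamban, was at -0.66 (SE 0.28) and -0.56 (SE 0.28) without that sample, which was the lowest of 20 at 37.9. The nuclear receptor gene Esrrg was at -0.51 (SE 0.35) and -0.41 (SE 0.35), and Tead1, a factor that binds MCAT elements, at -0.46 (SE 0.23) in both fits. For Tead1 JA16 replicate 3 was at 3343, inside the saline range, which began at 2403. Sln, the sarcolipin gene, was at 0.040 (SE 0.61), and at -0.027 without the sample.

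Over samples most pairs of members varied together. Across all 20 samples the median Pearson r of the 45 pairs of members was 0.83 (range 0.12 to 0.98), and 35 pairs had a permutation p, adjusted over the 45, under 0.05. The median Spearman rho, which limits the weight of a single sample, was 0.55 (-0.099 to 0.94, 28 pairs). Without JA16 replicate 3 the median r was 0.56 (-0.11 to 0.93, 28 pairs) and the median rho 0.48 (-0.28 to 0.93, 21 pairs). These p-values take samples as independent, though same-numbered samples deviate together.

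The troponin genes were closely related in level. Tnnt1 and Tnni1 had r = 0.98 and rho = 0.94 over 20 samples (permutation p = 1e-05 for both, the smallest that 100000 resamples can give, adjusted p = 4.5e-05 and 5.62e-05). It was r = 0.90 without the 2 samples farthest from the median of Tnnt1 and r = 0.93 without JA16 replicate 3. Tnnt1 and Tnnc1 had r = 0.98 and rho = 0.87 (permutation p = 1e-05 for both, adjusted p = 4.5e-05 and 5.62e-05), with r = 0.88 and 0.92 in these smaller sets. Myl2 was closest to Atp2a2 and Myl3 outside JA16 replicate 3, at r = 0.90 for both over 19 samples (permutation adjusted p = 6.43e-05 for both). Myl2, Atp2a2 and Myl3 all read lower in replicates 7 to 10, which adds to these r. As deviations from the mean of each group and array set, the r of Myl2 was 0.82 with Atp2a2 and 0.86 with Myl3. It was then higher with Tnnc1 (0.89) and Tnnt1 (0.87). For Tpm3, at the probe set that did not follow the troponins, r with Casq2 was 0.84 over 20 samples and 0.86 over 19 (permutation adjusted p = 4.5e-05 and 0.000169). Both genes read lower in replicates 7 to 10, which adds to this r. Without JA16 replicate 3, deviations from the mean of each group and array set gave r = 0.60. It was 0.49 in replicates 1 to 6 (n = 11) and 0.75 in replicates 7 to 10 (n = 8).

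Most correlations of Csrp3 rested on JA16 replicate 3. With Myoz2, Csrp3 had r = 0.91 over 20 samples and 0.47 over 19, its highest there (permutation adjusted p = 0.086). With Casq2 it had r = 0.44 and 0.40, little changed, and with Tpm3 0.20 and 0.28, weak in both. With Tnnt1 it had r = 0.78 but rho = -0.0075 over 20 samples (permutation p = 0.0329 and 0.977, adjusted p = 0.0435 and 0.977), and r = -0.056 without the 2 samples farthest from the median of Tnnt1, so that this relation rests on those samples. Its mean r with the other 9 members was 0.68 over 20 samples and 0.15 over 19. For Tnnt1 the same means were 0.76 and 0.51, for Myl3 0.80 and 0.67, and for the Tpm3 probe set 0.31 and 0.42.

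The relation differed between subsets of the samples. Within saline samples the median r of the 45 pairs was 0.47 (n = 10), and within JA16 samples without replicate 3 it was 0.65 (n = 9). In replicates 1 to 6 without JA16 replicate 3 it was 0.77 (n = 11), and in replicates 7 to 10 it was 0.0809 (n = 8), with 25 of 45 pairs above 0. Taking deviations from the mean of each group and array set, without JA16 replicate 3, gave 0.61. The difference between the array sets was not tested.

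**Figure D5:**
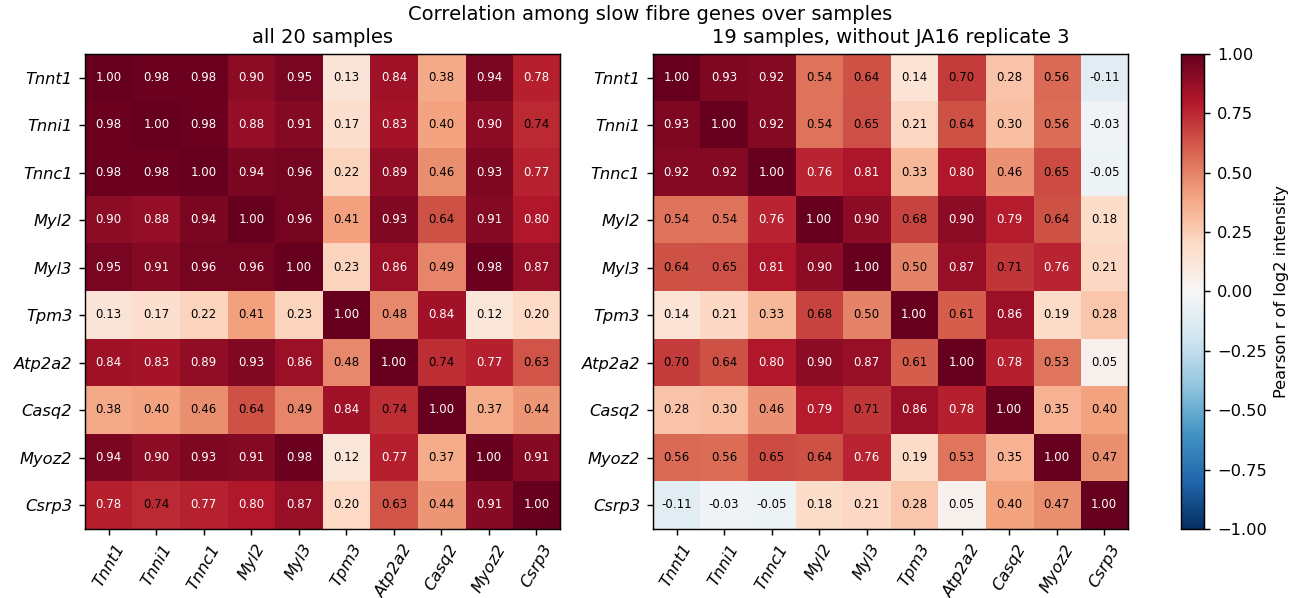
Pearson r of log2 intensity for each pair of the 10 slow fibre genes over all 20 samples (left) and over 19 samples without JA16 replicate 3 (right). Most pairs with Csrp3 lose their correlation on the right (r of 0.78 and -0.11 with Tnnt1). The pair with Myoz2 keeps a part (0.91 and 0.47), that with Casq2 changes little (0.44 and 0.40) and that with Tpm3 is weak in both (0.20 and 0.28). The 3 troponin genes keep r above 0.9.

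Of 11191 other genes, Myh7 was most like the members, by Pearson r with the mean of their standardised levels over samples, at 0.94 over 20 samples and 0.93 over 19, ranking 1 in both. The next by r over 20 samples were Atp1b1, a subunit of the sodium pump (0.93), Egln3, an oxygen-sensing prolyl hydroxylase (0.92), Zdhhc23 (0.92), Myh2 (0.92), Gm15743 (0.92), Smtnl1 (0.91), Myh7b (0.89), Ankrd2 (0.89) and Dcbld1 (0.88). Only 3 of these 10, Myh7, Smtnl1 and Myh7b, were among the 10 highest over 19 samples. There Atp1b1 was at 0.67, Ankrd2 at 0.56 and Dcbld1 at 0.54. The most opposite over 20 samples were Prkag3, an AMPK subunit of fast glycolytic fibres (-0.72), Prkacb (-0.64), Fbxo38 (-0.64), Klhl8 (-0.62) and Ermp1 (-0.62). Over 19 samples Prkag3, Fbxo38 and Ermp1 were at -0.61, -0.72 and -0.61, and Prkacb and Klhl8 at -0.26 and -0.29. The members' mean level, standardised over 20 samples, also differed between the array sets. It ran from -0.41 to -0.040 in replicates 7 to 10. In replicates 1 to 6 it ran from 0.033 to 0.79 in saline and, without replicate 3, from -0.31 to 1.27 in JA16 samples. The part of the array sets in these likenesses was not tested. The samples share a tissue and a scaling, so these values describe likeness in these samples only.

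Samples other than JA16 replicate 3 also spanned a wide range. JA16 replicate 2 was the highest of the 19 other samples for 9 of 10 members, with Tnni1 at 5584 against a saline median of 2251, and its difference from saline replicate 2 reached 2.09 for that gene. JA16 replicate 4 was the lowest of the 19 for the 3 troponin genes, but ranked 14 from the bottom for Csrp3 and 10 for Casq2. The rank for Casq2 includes replicates 7 to 10, where that gene read lower. Leaving out JA16 replicates 3 and 4, an alternative chosen after seeing the data, gave a median over the members of -0.069. In the marker lists of other tissues 0 genes passed in limma with or without the block. Both heart markers above the filter were lower (median -0.50, and -0.55 without JA16 replicate 3, Myl4 and Tnnt2). Tendon and fibroblast markers were lower for 8 of 8 (median -0.33, Fmod and Col1a1 brightest), nerve markers for 6 of 6 above the filter (-0.60, Pmp22 and Mbp), adipocyte markers for 4 of 4 (-0.38, Fabp4 and Adipoq), endothelial markers for 5 of 5 (-0.20, Tek and Cdh5), macrophage markers for 5 of 7 (-0.12, Csf1r and Lyz2) and embryonic muscle markers for 4 of 5 (-0.24, Chrna1 and Ncam1). Of the blood markers 1 of 4, Alas2, passed the filter (-0.096). Without JA16 replicate 3 the endothelial median was -0.12, Alas2 was at 0.026 and 7 of 8 tendon and fibroblast markers were lower. Their part in the members' levels was not tested.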

How the data were processed

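Gastrocnemius RNA of 10 JA16 and 10 saline samples was amplified and labelled with NuGEN kits and hybridised to Affymetrix M430 2 arrays, per the labels. The authors deposited MAS5 intensities (no version in the submitters' processing notes), whose mean after trimming 2% at each end was 500 on every array. From these deposited intensities log2 values were computed here, with 5 values at or below 0 set to 0.1. Of 45037 probe sets other than controls, 22519 with a mean log2 intensity of at least 5.65 were tested with limma 3.58.1 in R 4.3.3 (lmFit, eBayes with a trend, Benjamini-Hochberg threshold 0.05), without the replicate number as a block. Genes were named from the platform annotation. Same-numbered samples deviated together from their group means (correlations of 0.377 to 0.786 in 10 of 10 pairs). They also share an array set, and the labels name no pairing, so what links them was not tested. The number of arrays limits the precision. The fit was tested on simulated data. The members, the gene lists and the rule for named genes (members, fast paralogs, other slow fibre genes with the largest differences, genes most and least like the members) were chosen with earlier results of these data known. Alternatives covered the block, each sample left out, normalization, the filter, the array set and array weights.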

Additional observations from a re-analysis of the deposited data

Results flagged for a closer look

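Within groups of 10, 24 of 102 groups over 51 probe sets had a lowest sample whose gap to the next exceeded Dixon's 95% critical value, where chance gives about 1 in 20. JA16 replicate 3 was that sample in 22. Among the members its intensities were 114.9 for Tnnt1, 47.9 for Tnni1, 585.7 for Tnnc1 and 1209.7 for Myl2. They were 989.6, 389.8 and 120.5 for the 3 probe sets of Myl3, and 144.7 and 78.2 for probe sets 1449997_at and 1449996_a_at of Tpm3. For the Z-disc genes they were 339.3 for Myoz2 and 333.7 for Csrp3.

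Among the other genes named, the same sample read 4.0 for Myh7b, 389.1 for Myh7, 1932.9 for Myh2 and 18.7 for Myom3. It read 1664.1 for Atp1b1, 263.5 for Egln3, 45.9 for Zdhhc23, 4.7 for Gm15743, 372.6 for Smtnl1, 207.7 for Ankrd2 and 12.7 for Dcbld1. The genes most like the members were picked with this sample included, so their low values there are partly set by that choice. The remaining samples were saline replicate 8 for Csrp3 (2530.2) and saline replicate 2 for the dim, untested Atp2a2 probe set 1443551_at (1.0).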

How the results depend on the processing

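Of 330 values of the 10 members under alternatives, 312 kept their direction and 18 reversed. A block over all samples, no filter, no trend and 1 probe set per gene leave these differences unchanged by construction. Most of the other alternatives kept JA16 replicate 3. Of the 10 members, 6 were lower without that sample, with the block and without number 3, and without JA16 replicates 3 and 4. In replicates 7 to 10, 7 were lower. In limma 0 member probe sets passed under any alternative. An unadjusted p under 0.05 was most frequent among them with array weights (9 of 20, beside 610 of 22519 over all) and without JA16 replicate 2 (5 of 20, beside 511). The numbers of probe sets passing over all genes, 2 in the reported fit, were 45 with the replicate block, 14 with the block and without both samples numbered 3, 4 with 1 probe set per gene, 9 with the array set as a block, 4 with array weights, and 0 in replicates 1 to 6 and 0 in replicates 7 to 10, each with the block, where 2158 and 1506 had an unadjusted p under 0.05. They were 2 to 5 when each sample was left out. The members' median of -0.44 became -0.087 with the block and without number 3, -0.10 in replicates 7 to 10, -0.79 with array weights and -0.069 without JA16 replicates 3 and 4 (chosen after seeing the data), and ran from -0.59 to -0.13 when each sample was left out, the last without JA16 replicate 3. In the block without number 3, replicates 7 to 10 and the fit without JA16 replicates 3 and 4, Myl3 was at 0.0064, 0.027 and 0.018, Myoz2 at 0.016, 0.16 and 0.036 and Csrp3 at 0.34, 0.38 and 0.30, and Casq2 was at 0.059 in the first and 0.018 in the last. With each sample left out, Myl3 ran from -0.55 to 0.0071, Casq2 from -0.25 to 0.045, Myoz2 from -0.57 to 0.013 and Csrp3 from -0.33 to 0.31. The median r among members, 0.83, was 0.56 without JA16 replicate 3, 0.47 in saline samples, 0.55 as Spearman rho and 0.61 as deviations from group and array set means without JA16 replicate 3 (chosen after seeing the data). Without that sample 3 of the 10 most similar genes remained, and the members' median SD in JA16 samples, 1.39, was 0.59. The cause of these shifts was not tested.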

Other observations

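JA16 replicate 3 was also far below all other samples in bright probe sets of genes outside the members, named here after their values were seen. Ldhb, the lactate dehydrogenase subunit of oxidative muscle, was at 396, 467.5 and 913.1 in its 3 probe sets, against at least 3045, 3512 and 5191 in all other samples. Hspb7, a small heat shock protein gene of heart and muscle, was at 91.2 against at least 612. Lmod2, which encodes a leiomodin of the thin filament, was at 315 against at least 1516, Mybpc1, the slow myosin binding protein C gene, at 153 against at least 749, and Dgat2, a triglyceride synthesis gene, at 220.2 against at least 883. Without that sample Sln ranked 4 among 11191 genes by likeness to the members (r = 0.79), against 852 with it (r = 0.34). The part of the array sets in that rank was not tested.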
